A study of Mus musculus with 16 samples.

Results

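The ETO corepressors Runx1t1, Cbfa2t2 and Cbfa2t3, the RUNX transcription factors Runx1, Runx2 and Runx3, and Cbfb, the partner subunit of the RUNX proteins, were examined in mouse sympathetic ganglia and neuroblastoma tumors. These 7 genes were taken by symbol from a table of 24411 genes. All 7 were among the 16665 genes that passed the filter on low counts.

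RNA sequencing covered 16 libraries in 5 groups. Celiac ganglia from 2-week-old mice formed 4 groups, of which 4 ganglia came from mice that lacked the transgene and carried both Runx1t1 alleles (transgene-free, Runx1t1 +/+), 3 were transgene-free and labelled heterozygous for Runx1t1, 3 were from mice homozygous for Th-MYCN with wild-type Runx1t1 (Th-MYCN, Runx1t1 +/+) and 2 were from Th-MYCN homozygotes labelled heterozygous for Runx1t1. The fifth group held 4 tumors, of unstated age, from Th-MYCN homozygotes with wild-type Runx1t1. The Th-MYCN transgene places human MYCN under a tyrosine hydroxylase promoter, so it is active in cells of the sympathetic lineage and not in the whole ganglion, and the heterozygous line carries 1 functional Runx1t1 allele through an insertion. Human MYCN itself was not among the genes counted. The labels number the libraries of a group as replicates and do not name the animals behind them, so that p-values describe the spread between these samples.

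ETO proteins do not bind DNA themselves. They are scaffolds that join DNA-bound transcription factors, such as E proteins and other basic helix-loop-helix factors, to NCOR and SIN3 corepressors, histone deacetylases and the LSD1-CoREST complex. RUNX proteins bind DNA through the Runt domain, CBFB binds the same domain and strengthens that contact, and RUNX1T1 owes its name to a leukemia translocation that fuses it to RUNX1. Runx1, Runx2 and Runx3 are best known from blood cells, from bone, and from T cells and sensory neurons, respectively.

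Library totals ran from 10692299 to 38618757 counts. Of the 16 libraries, 6 ganglia held fewer than 20000000 counts and all 4 tumors held more. Both Th-MYCN ganglia labelled het were among the 6, so depth and group cannot be told apart in their comparison with tumors. Transgene-free Runx1t1 +/+ ganglion 2 stood apart from the other 15 libraries. The summed TPM (RSEM's level of a gene, scaled by transcript length and library size) of 10 lymphocyte markers was 937 in this ganglion and from 1.51 to 15.5 in the others, and the summed TPM of 9 macrophage markers was 617 against 40.9 to 126 in the other 6 transgene-free ganglia. Values without this ganglion are given beside the results that it moved most. The markers of sympathetic neurons were present in every library, with sums from 4048 to 12530 TPM in the 12 ganglia, where ganglion 2 was lowest, and from 1503 to 2488 TPM in tumors. Of these 8 markers, 6 were lower in tumors than in transgene-free ganglia and 1 was higher. Between transgene-free ganglia and tumors the summed markers also differed for glia (511 to 1839 TPM, or at least 1185 TPM without ganglion 2, against 12.2 to 19.97 TPM), fibroblasts (1724 to 7899 TPM against 171 to 506 TPM) and cycling cells (55.3 to 284 TPM, or at most 77.9 TPM without ganglion 2, against 1187 to 1393 TPM), with 6 markers each. In tumors 4 of 6 endothelial markers (3 of 6 without ganglion 2), 4 of 5 tested mast cell markers, 5 of 6 adrenal cortex markers, 2 of 5 erythroid and megakaryocyte markers and 1 of 2 skeletal markers were lower as well. In such bulk samples, fewer cells of a type and less RNA per cell cannot be told apart.

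Levels of the 7 genes differed widely within a ganglion. In the 6 transgene-free ganglia other than Runx1t1 +/+ ganglion 2, Cbfb was highest at 39.7 ± 6.90 TPM (SD, n = 6). Cbfa2t2 followed at 14.5 ± 1.19 TPM, below every Cbfb value. Cbfa2t3 at 5.30 ± 1.42 TPM, Runx1t1 at 4.40 ± 1.11 TPM and Runx1 at 2.37 ± 0.752 TPM came next, and neighbours in this order overlapped. Runx2 at 0.752 ± 0.231 TPM and Runx3 at 0.532 ± 0.326 TPM were lowest, below every Runx1 value, and overlapped each other. Tumors had another order, with Runx1t1 at 41.8 ± 12.3 TPM (SD, n = 4), which overlapped Cbfb at 38.1 ± 4.31 TPM. Cbfa2t2 at 28.1 ± 4.71 TPM lay below every Cbfb value but overlapped Runx1t1. It was followed by Cbfa2t3 at 1.76 ± 1.04 TPM, Runx1 at 1.41 ± 0.619 TPM and Runx3 at 1.23 ± 0.179 TPM, which overlapped in turn, and Runx2 was lowest at 0.435 ± 0.304 TPM.

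**Figure D1:**
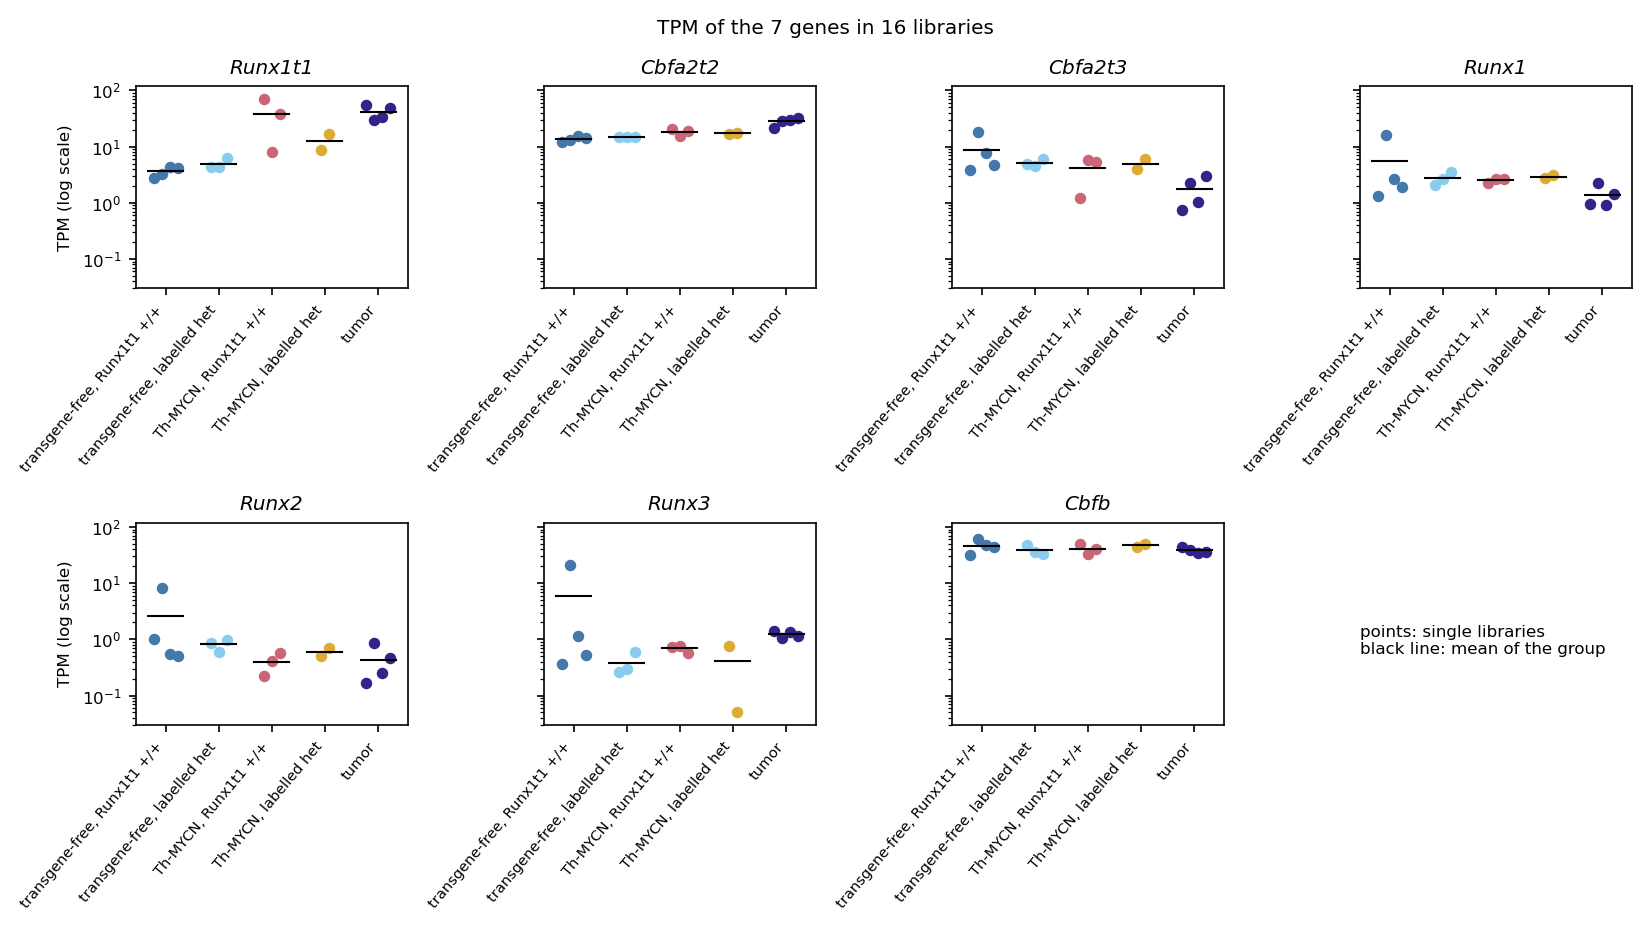
TPM (log scale) of each of the 7 genes in the 16 libraries by group, with points for libraries and a black line for the mean of the group. Runx1t1 and Cbfa2t2 sat highest in tumors or Th-MYCN ganglia, and the highest point of Runx1, Runx2, Runx3 and Cbfa2t3 was in each case transgene-free Runx1t1 +/+ ganglion 2.

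Among the ETO genes, Runx1t1 and Cbfa2t2 were higher in tumors than in transgene-free ganglia and Cbfa2t3 was lower. Runx1t1 rose 13.2-fold, Cbfa2t2 rose 2.63-fold and Cbfa2t3 fell 2.83-fold in the fit over all groups. These 3 of the 7 genes passed the threshold (edgeR's quasi-likelihood test, Benjamini-Hochberg adjusted p under 0.05 over all genes), while Runx1, Runx2, Runx3 and Cbfb did not. In this comparison 61.4% of all tested genes passed, 30.6% higher and 30.9% lower in tumors, so the share among the 7 genes was not above that of genes in general. The median of all genes was −0.06 on the log2 scale in this fit and −0.35 with limma on log2(TPM + 1), and 49.8% and 31.6% of the called genes were higher in tumors.

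Runx1t1 (ENSMUSG00000006586.15, chr4:13743436-13893649 on the plus strand, GRCm38) encodes the ETO protein MTG8. Its level was 2.78, 3.3, 4.41 and 4.19 TPM in transgene-free Runx1t1 +/+ ganglia 1 to 4 and 4.38, 4.36 and 6.28 TPM in transgene-free ganglia labelled het 1, 3 and 4. The ganglia labelled het thus lay inside or above the range of the wild-type ganglia. Their fitted log2 difference was 0.41 (standard error, SE, 0.52, 95% interval −0.71 to 1.54, adjusted p = 0.993, edgeR), and no gene passed in this comparison (0% of those tested, with 687 genes at an unadjusted p under 0.05, and with 2 called by DESeq2 and 0 by limma). Gene-level RNA therefore did not separate the het labels from wild type, and these ganglia are called by their label. The tables hold 1 value per gene, so transcripts of the disrupted allele were not measured separately.

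In Th-MYCN Runx1t1 +/+ ganglia 1, 3 and 4, Runx1t1 was at 70.3, 7.90 and 37.4 TPM, and in Th-MYCN ganglia labelled het 1 and 2 it was at 8.83 and 16.9 TPM. Tumors 1 to 4 had 55.8, 29.5, 33.6 and 48.2 TPM. All 5 Th-MYCN ganglia lay above all 7 transgene-free ganglia, and ganglion 1 lay above every tumor. Relative to the mean of the 7 transgene-free ganglia, the 3 Th-MYCN Runx1t1 +/+ ganglia were 16.6, 1.86 and 8.82 times as high and those labelled het 2.08 and 3.97 times. The cycling cell markers summed to 997, 102 and 528 TPM in the same 3 Th-MYCN Runx1t1 +/+ ganglia and to 78.2 and 211 TPM in the 2 labelled het, and their part in the Runx1t1 levels was not tested.

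Against transgene-free ganglia, tumors had a Runx1t1 log2 fold change of 3.72 (SE 0.44, 95% interval 2.78 to 4.65, adjusted p = 8.52e-06, edgeR). The value was also 3.72 without transgene-free Runx1t1 +/+ ganglion 2 and 2.98 (adjusted p = 3.38e-05) with limma on log2(TPM + 1). Among libraries over 20000000 counts it was 3.58, from group means and without a test. Th-MYCN Runx1t1 +/+ ganglia exceeded their transgene-free counterparts by 3.49 (SE 0.55, adjusted p = 0.0296, edgeR), in a comparison where 0.936% of all genes passed. That call was lost without Th-MYCN ganglion 1 (2.59, adjusted p = 0.135) or 4 (3.58, adjusted p = 0.0798), and without transgene-free ganglion 1, 3 or 4 (3.38, 3.58 and 3.54, adjusted p from 0.0815 to 0.122, edgeR). In each of these 5 fits no gene among all those tested passed, and the Runx1t1 difference stayed between 3.38 and 3.58 except without Th-MYCN ganglion 1. Without Th-MYCN ganglion 3 the difference was 3.98 (adjusted p = 1.25e-04, edgeR), in a fit with 1811 genes called. The call was also lost with no other groups in the fit (3.49, adjusted p = 0.378), with a block for the replicate number (3.28, adjusted p = 0.0736), both with 0 of all genes called, and with limma on log2(TPM + 1) (2.65, adjusted p = 0.0693). The difference was 2.41 within the libraries over 20000000 counts and 4.66 within those under it, where Th-MYCN ganglion 1 was the only Th-MYCN Runx1t1 +/+ library and there was no test. Without transgene-free ganglion 2 it held, at 3.47 (adjusted p = 0.0323), in a fit in which 4.08% of all genes passed. The other 6 genes did not pass. Of these, Cbfa2t2, Runx2 and Runx3 had an unadjusted p under 0.05, at 0.46, −2.67 and −3.11, as did 3302 of all 16665 genes, and without ganglion 2 Runx2 was at −0.44 (adjusted p = 0.748) and Runx3 at 0.08 (adjusted p = 0.964, edgeR).

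Among ganglia labelled het, Th-MYCN exceeded transgene-free ganglia in Runx1t1 by 1.34 on the log2 scale (SE 0.62, 95% interval 0.01 to 2.66, adjusted p = 1, edgeR). The share of genes that passed was 0%, with 242 at an unadjusted p under 0.05, and DESeq2 called 14 genes, 0 of the 7 among them, and limma 0. The difference between the effects of Th-MYCN in both genotypes was −2.16 (SE 0.83, 95% interval −3.94 to −0.37, adjusted p = 0.845, edgeR), and for this interaction too 0% of genes passed, against 937 at an unadjusted p under 0.05, 30 called by DESeq2 and 0 by limma. Within Th-MYCN ganglia, those labelled het had 3.34-fold less Runx1t1 than Runx1t1 +/+ ganglia, on the log2 scale −1.74 (SE 0.66, adjusted p = 0.350, edgeR), where 0.012% of genes passed. Both groups overlapped. Without Th-MYCN Runx1t1 +/+ ganglion 3, the lowest of its group, the value was −2.23 (adjusted p = 0.0342, edgeR), in a fit with 320 genes called in place of 2.

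Tumors and Th-MYCN Runx1t1 +/+ ganglia did not differ in Runx1t1 beyond the spread between samples, at a fitted log2 value of 0.43 (SE 0.52, 95% interval −0.68 to 1.55, adjusted p = 0.546, edgeR). It was 1.34 (adjusted p = 0.0492) without ganglion 1 and −0.06 (adjusted p = 0.929) without ganglion 3. Tumors exceeded Th-MYCN ganglia labelled het by 2.18 (SE 0.66, adjusted p = 0.0149, edgeR), and by 1.77 (adjusted p = 0.152) without ganglion 1 labelled het. Pooled over both genotypes, Th-MYCN ganglia exceeded transgene-free ganglia by 2.41 (SE 0.41, adjusted p = 0.0524, edgeR). Of the 7 genes, 0 passed in this pooled comparison, where 0.042% of all genes did, 2 of them (Runx1t1 and Cbfa2t2) had an unadjusted p under 0.05, as had 1574 of all genes, and DESeq2 called 1, Runx1t1 (adjusted p = 1.51e-06), among 361 genes.

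**Figure D2:**
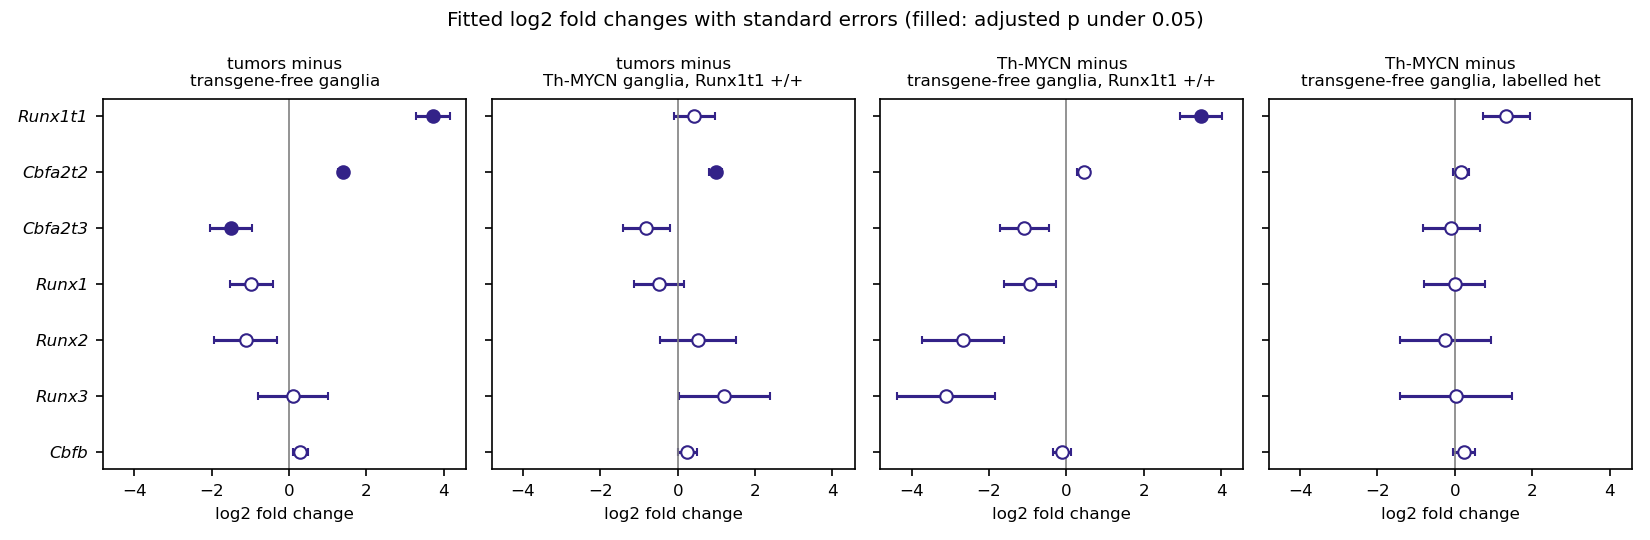
Fitted log2 fold change (horizontal axis) of each gene with its SE in 4 comparisons, with filled points for an adjusted p under 0.05. Runx1t1 at 3.72 and Cbfa2t2 at 1.40 were to the right in tumors against transgene-free ganglia, and Cbfa2t3 at −1.50 was to the left.

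Cbfa2t2 (ENSMUSG00000038533.15, chr2:154436481-154539356, plus strand) encodes MTGR1, an ETO protein that is made in many tissues. It was the most even of the ETO genes, at 12.2, 13.1, 15.5 and 14.4 TPM in transgene-free Runx1t1 +/+ ganglia 1 to 4 and at 15.1, 14.6 and 15.1 TPM in those labelled het. Th-MYCN Runx1t1 +/+ ganglia had 20.4, 15.3 and 19.3 TPM, and those labelled het 16.9 and 17.4 TPM. Tumors had 21.5, 28.2, 30.2 and 32.4 TPM, so that each tumor exceeded each of the 12 ganglia.

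The tumors' log2 fold change of Cbfa2t2 was 1.40 against transgene-free ganglia (SE 0.13, 95% interval 1.11 to 1.68, adjusted p = 2.10e-06, edgeR). Against Th-MYCN Runx1t1 +/+ ganglia it was 0.99 (SE 0.17, adjusted p = 7.17e-04, edgeR), in a comparison in which 34.5% of genes passed. Cbfa2t2 was the 1 gene of the 7 to pass there. Against Th-MYCN ganglia labelled het it was 1.19 (SE 0.20, adjusted p = 3.47e-04, edgeR), where 45.5% of genes passed and Runx1t1 and Cbfa2t2 were the 2 genes of the 7 among them. The 3 tumor comparisons share the same tumors, and so are not independent of each other. Between Th-MYCN and transgene-free Runx1t1 +/+ ganglia Cbfa2t2 differed by 0.46 (SE 0.16, adjusted p = 0.157, edgeR), and 0.60 (adjusted p = 0.0346) without Th-MYCN ganglion 3.

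The ETO gene that is known mainly from blood-forming cells, Cbfa2t3 (ENSMUSG00000006362.16, chr8:122625141-122699109, minus strand), encodes MTG16. Its level was 3.78, 18.0, 7.78 and 4.72 TPM in transgene-free Runx1t1 +/+ ganglia and 4.96, 4.5 and 6.04 TPM in those labelled het. The highest value belonged to ganglion 2, the one with lymphocyte markers. In Th-MYCN Runx1t1 +/+ ganglia 1, 3 and 4 it was at 1.24, 5.89 and 5.39 TPM, in those labelled het at 4.03 and 5.91 TPM, and in tumors at 0.760, 2.26, 1.05 and 2.98 TPM. On the TPM scale the tumors lay below all 7 transgene-free ganglia, whereas on the TMM-scaled count scale the ranges overlapped, with 12.7 CPM (counts scaled to library size) in tumor 4 and 11.9 CPM in transgene-free ganglion 1.

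In tumors Cbfa2t3 fell, at a log2 difference of −1.50 (SE 0.53, 95% interval −2.65 to −0.35, adjusted p = 0.0254, edgeR). Without transgene-free ganglion 2 it fell by 1.12 (adjusted p = 0.0423). The call was lost without tumor 1 (−1.25, adjusted p = 0.0727) and without tumor 3 (−1.31, adjusted p = 0.0724, edgeR), the lowest libraries of this gene among tumors. The fibroblast, glia, endothelial, mast cell, adrenal cortex and sympathetic neuron markers that were lower in tumors moved in the same direction. Their part in the Cbfa2t3 value was not tested. Th-MYCN Runx1t1 +/+ ganglion 1, which had the most Runx1t1 of all libraries, had less Cbfa2t3 than any other ganglion. The summed fibroblast and glia markers of that ganglion were 888 and 457 TPM, the lowest of the 12 ganglia, and their part in its Cbfa2t3 level was not tested.

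Together these shifts changed the composition of the ETO transcripts. Runx1t1 made up 14.6 ± 3.58% of the summed ETO TPM in transgene-free Runx1t1 +/+ ganglia (SD, n = 4), 19.8 ± 2.72% in those labelled het (n = 3), 35.8 ± 8.72% in Th-MYCN ganglia labelled het (n = 2), 54.7 ± 25.1% in Th-MYCN Runx1t1 +/+ ganglia (n = 3) and 57.5 ± 9.96% in tumors (n = 4). Cbfa2t3 went from 20.5 ± 1.45% in transgene-free ganglia labelled het to 2.48 ± 1.40% in tumors, and was at 30.2 ± 15.2% in transgene-free Runx1t1 +/+ ganglia, where ganglion 2 had 52.3%. Without that ganglion, Runx1t1 made up 16.3 ± 1.62% and Cbfa2t3 22.9 ± 4.57% of a sum of 23.2 ± 4.45 TPM in this group (SD, n = 3). The sum of the 3 genes was 26.0 ± 6.65 TPM in transgene-free Runx1t1 +/+ ganglia, 25.1 ± 2.04 TPM in those labelled het, 35.0 ± 7.34 TPM and 61.0 ± 31.5 TPM in Th-MYCN ganglia labelled het and Runx1t1 +/+, and 71.6 ± 11.04 TPM in tumors. In all 7 transgene-free ganglia Cbfa2t2 exceeded Runx1t1, with Runx1t1 at 0.228 to 0.416 times its level, and in all 4 tumors Runx1t1 exceeded Cbfa2t2, at 1.05 to 2.60 times. Th-MYCN ganglia lay on both sides, with ratios of 3.44, 0.518 and 1.94 in Runx1t1 +/+ ganglia 1, 3 and 4 and 0.521 and 0.968 in those labelled het.

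**Figure D3:**
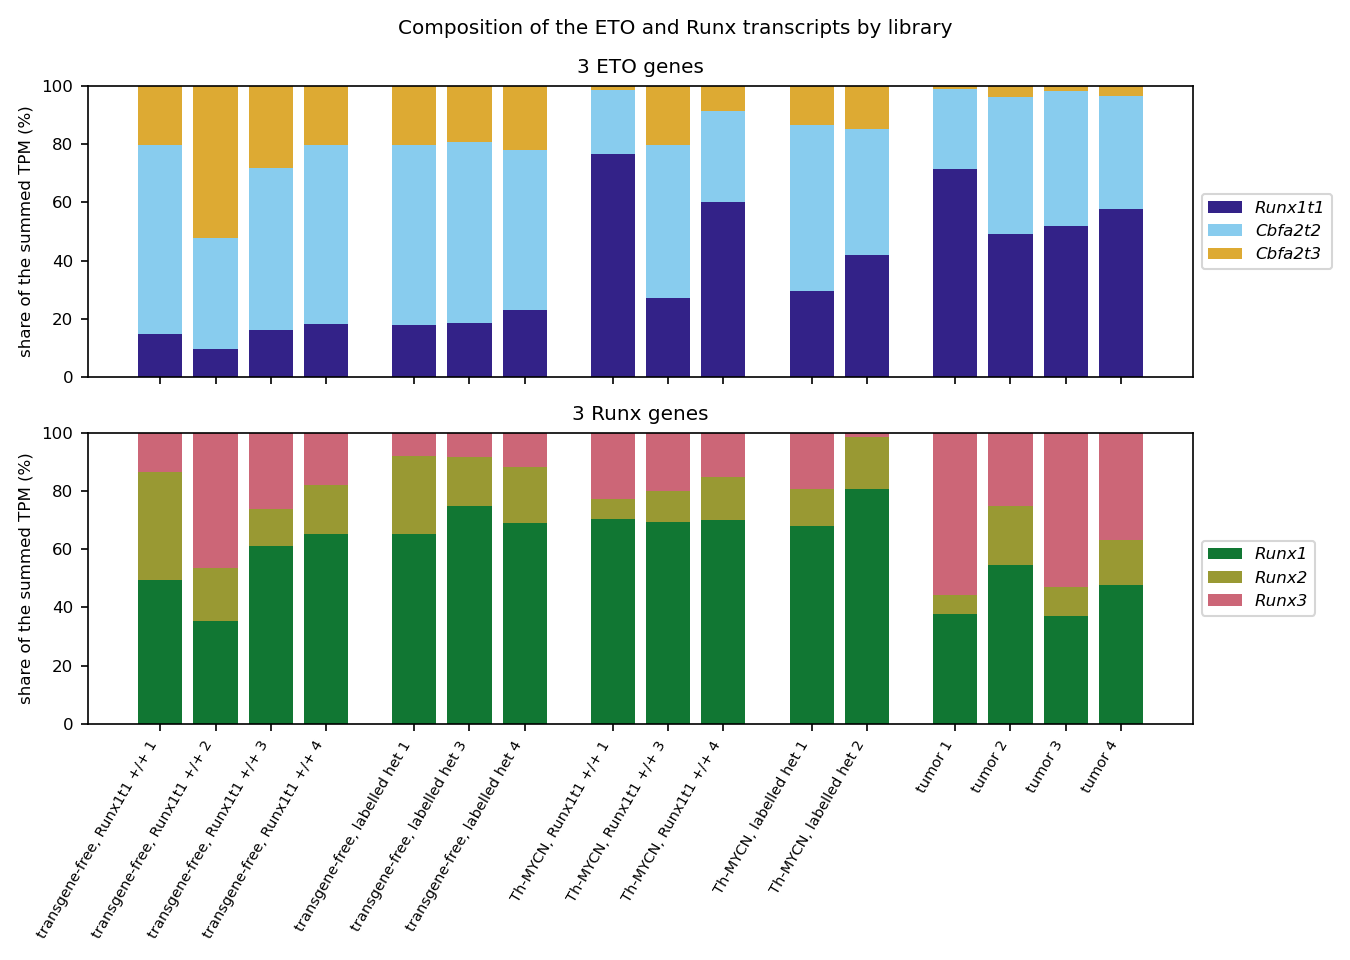
Share (%) of each gene in the summed TPM of the 3 ETO genes (top) and of the 3 Runx genes (bottom), 1 bar per library. Runx1t1 took from 9.61 to 22.9% of the ETO sum in transgene-free ganglia and from 49.2 to 71.5% in tumors, and Runx3 took from 25.1 to 55.6% of the Runx sum in tumors.

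The Runx genes carry copies of the sequence that RUNX proteins bind next to a start of transcription. RUNX proteins recognise TGTGGT, which reads ACCACA on the other strand. Among RefSeq promoter windows of GRCm38.p6, from 250 bases before to 50 bases after a start, 6 of the 7 genes had an entry, with 9 windows. A pair of ACCACA on one strand with 2 bases between was found in 3 of these windows, 1 for each Runx gene. The stretch around each pair is shown because 18 bases in a row, which span the pair, are the same in all 3 genes, with the copies in capitals, written 5′ to 3′ on the strand of the gene. The capitals are the letters that were searched for, so they agree by the choice of the stretches.
Runx1: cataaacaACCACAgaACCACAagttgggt
Runx2: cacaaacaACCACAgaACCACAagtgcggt
Runx3: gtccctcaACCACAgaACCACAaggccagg

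Over the 30 bases shown, Runx1 and Runx2 had the same base at 27 positions, Runx2 and Runx3 at 21 and Runx1 and Runx3 at 19. These counts include the letters in capitals, which the search fixed. The stretches lie at chr16:92826025-92826054 (minus strand, first copy 28 bases after the start) for Runx1, at chr17:44814583-44814612 (minus strand, 23 bases after) for Runx2 and at chr4:135120503-135120532 (plus strand, first copy at −134 from the start) for Runx3. Such a pair occurred, on either strand, in 7 of 32851 windows (0.0213%), the other 4 being those of Gm12236, Gm15462, Gm16225 and Olfr24. A single TGTGGT in either direction was common, in 16.8% of windows, and was absent from the windows of Cbfa2t2, Cbfa2t3 and Cbfb. It was also absent from the other window of Runx1 (chr16:92697280-92697579) and of Runx3 (chr4:135152295-135152594). The E-box CACGTG was in 7.15% of windows, and among these genes in that of Runx1 that also holds the pair. A match describes these letters and not the binding of a factor.

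Runx1, Runx2 and Runx3 were low in all libraries but 1. Their summed level was 2.51 to 5.11 TPM in 15 libraries and 45.4 TPM in transgene-free Runx1t1 +/+ ganglion 2. In that ganglion Runx3 was at 21.1, Runx1 at 16.01 and Runx2 at 8.25 TPM. The T-cell gene Cd3e was at 75.5 TPM and the B-cell gene Cd79a at 218 TPM in the same ganglion, and their highest values in the other 15 libraries were 0.430 and 2.01 TPM. Ptprc, a surface marker of all white blood cells, was at 230 TPM against at most 14.2 TPM. The part of lymphocytes in the Runx values was not tested.

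Runx1 (ENSMUSG00000022952.17, chr16:92601466-92826149, minus strand) is needed for the emergence of blood stem cells and is found in some sensory neurons. It was at 1.33, 16.01, 2.66 and 1.94 TPM in transgene-free Runx1t1 +/+ ganglia 1 to 4 and at 2.11, 2.67 and 3.52 TPM in those labelled het. Th-MYCN ganglia were close to each other, with 2.27, 2.69 and 2.67 TPM for Runx1t1 +/+ and 2.71 and 3.15 TPM for those labelled het. Tumors had 0.970, 2.26, 0.930 and 1.46 TPM and overlapped the transgene-free ganglia. On this scale they lay below all 5 Th-MYCN ganglia, tumor 2 narrowly, while in TMM-scaled CPM tumor 2 (8.44) was above them (7.18 to 8.41). In tumors against transgene-free ganglia its log2 difference was −0.98 (SE 0.56, 95% interval −2.18 to 0.22, adjusted p = 0.141, edgeR) and −0.28 (adjusted p = 0.416) without ganglion 2.

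Runx2 (ENSMUSG00000039153.16, chr17:44495987-44814797, minus strand), the regulator of bone formation, was below 1.02 TPM in the 15 other libraries. Transgene-free Runx1t1 +/+ ganglia had 1.01, 8.25, 0.550 and 0.500 TPM, and those labelled het 0.870, 0.590 and 0.990 TPM. Levels were 0.220, 0.410 and 0.560 TPM in Th-MYCN Runx1t1 +/+ ganglia, 0.500 and 0.710 TPM in those labelled het and 0.170, 0.850, 0.250 and 0.470 TPM in tumors. Tumors overlapped each group of ganglia, and the Th-MYCN Runx1t1 +/+ ganglia lay below the transgene-free ganglia labelled het. In tumors it differed by −1.13 on that scale (SE 0.82, adjusted p = 0.250, edgeR), and without ganglion 2 it was 0.00265 (SE 0.50, adjusted p = 0.997). Counts were as low as 6 per library.

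Runx3 (ENSMUSG00000070691.10, chr4:135120652-135177990, plus strand) acts in cytotoxic T cells and in proprioceptive neurons. Its level was 0.360, 21.1, 1.14 and 0.530 TPM in transgene-free Runx1t1 +/+ ganglia and 0.260, 0.300 and 0.600 TPM in those labelled het. Th-MYCN Runx1t1 +/+ ganglia had 0.730, 0.770 and 0.580 TPM, and those labelled het 0.770 and 0.05 TPM, the last from 1 count. Tumors had 1.43, 1.04, 1.33 and 1.13 TPM, from 75 to 85 counts each. Ganglion 2 aside, the tumors lay above the ganglia with the exception of transgene-free ganglion 3, whose 1.14 TPM lay among them.

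With all libraries Runx3 differed in tumors by 0.10 on the log2 scale (SE 0.90, 95% interval −1.84 to 2.03, adjusted p = 0.934, edgeR). Without transgene-free ganglion 2 it was 1.70, or 3.26-fold (SE 0.53, adjusted p = 0.0120, edgeR). Within the libraries over 20000000 counts, which also leave out ganglion 2, it was 1.39, from mean CPM and without a test. In the fit without ganglion 2, 65.1% of all genes passed, and 4 of the 7 genes, which were Runx1t1, Cbfa2t2, Cbfa2t3 and Runx3. The macrophage markers were also higher in tumors (169 to 492 TPM) than in these 6 ganglia (40.9 to 126 TPM), while the lymphocyte markers summed to 5.35 to 15.5 TPM and 2.75 to 9.10 TPM, and their part was not tested. Against Th-MYCN Runx1t1 +/+ ganglia, whose Runx3 levels all lay below those of tumors, Runx3 in tumors differed by 1.21 (SE 1.18, adjusted p = 0.452, edgeR). Runx3 made up 42.7 ± 14.4% of the Runx sum in tumors (SD, n = 4, from 25.1 to 55.6%) and from 8.02 to 26.2% in the 6 transgene-free ganglia without ganglion 2. Runx1 made up 44.2 ± 8.37% in tumors (from 37.1 to 54.5%) and from 49.3 to 75.0% in those ganglia. For both genes the ranges overlapped.

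**Figure D4:**
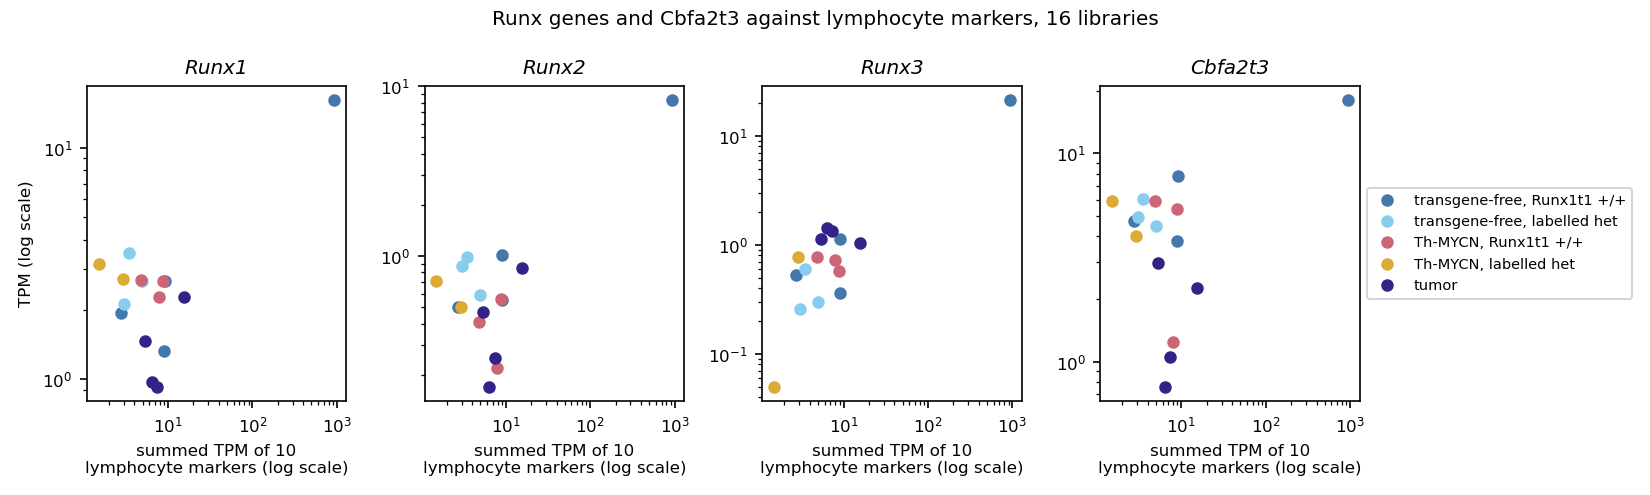
TPM of Runx1, Runx2, Runx3 and Cbfa2t3 (log scale) against the summed TPM of 10 lymphocyte markers (log scale), with 1 point per library coloured by group. Transgene-free Runx1t1 +/+ ganglion 2 was alone at the upper right, at 937 TPM of markers, and the other 15 libraries held at most 15.5 TPM.

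Cbfb (ENSMUSG00000031885.14, chr8:105170674-105217989, plus strand) had the narrowest relative range of the 7 genes, from 32.0 to 60.0 TPM over the 16 libraries. It was at 32.0, 60.0, 47.0 and 43.7 TPM in transgene-free Runx1t1 +/+ ganglia, 46.9, 35.6 and 33.3 TPM in those labelled het, 50.2, 33.3 and 40.4 TPM in Th-MYCN Runx1t1 +/+ ganglia and 43.9 and 50.4 TPM in those labelled het. Tumors had 44.2, 38.1, 34.8 and 35.3 TPM, inside the range of the ganglia. The fitted change in tumors was 0.29 (SE 0.19, 95% interval −0.13 to 0.71, adjusted p = 0.214, edgeR) and −0.12 (adjusted p = 0.553, limma) on log2(TPM + 1), where the median of all genes was −0.35. Cbfb exceeded the sum of the 3 Runx genes in each library, by 6.51 to 17.2 times in 15 libraries and by 1.32 times in transgene-free Runx1t1 +/+ ganglion 2.

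The partners of the ETO proteins were taken as a list of 21 corepressor genes, of which 20 were tested. In tumors 14 were higher than in transgene-free ganglia, 1 was lower and 5 did not pass, and their median log2 fold change was 0.72 against −0.06 for all genes, of which 61.4% passed and 30.6% were higher. On log2(TPM + 1) with limma 9 were higher and 2 lower, with a median of 0.25. By the rule for named genes, Rcor2, a CoREST scaffold of LSD1, had the largest change, from 11.2 ± 3.90 TPM (SD, n = 7) to 131 ± 33.2 TPM (n = 4), 3.98 on the log2 scale (adjusted p = 4.80e-06, edgeR). Gps2, a subunit of the NCOR complex, went from 67.2 ± 12.2 to 131 ± 7.74 TPM (1.42, adjusted p = 3.05e-06) and the deacetylase Hdac1 from 50.2 ± 21.8 to 93.1 ± 8.24 TPM (1.38, adjusted p = 1.49e-04, edgeR). Rcor3, another CoREST protein, fell from 32.1 ± 4.79 to 15.8 ± 1.53 TPM (−0.67, adjusted p = 0.00196, edgeR). Between pooled Th-MYCN and transgene-free ganglia 0 of the 20 passed and 2 had an unadjusted p under 0.05, where 1574 of all 16665 genes did. The markers of cycling cells were higher in tumors as well, for 6 of 6 genes with a median log2 fold change of 4.97, and their part in the values of these partners was not tested.

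Of 18 DNA-bound factors and adaptors known to meet ETO proteins, 16 were tested, 6 were higher and 3 lower in tumors, and 7 did not pass, near the share of 61.4% called among all genes. Their median log2 fold change was 0.12 (−0.26 with limma on log2(TPM + 1), where 6 were higher and 5 lower). The E proteins Tcf4 (from 35.0 ± 3.00 to 166 ± 24.1 TPM, log2 fold change 2.68, adjusted p = 7.84e-07) and Tcf3 (from 49.5 ± 23.3 to 168 ± 35.0 TPM, 2.25, adjusted p = 2.66e-05, edgeR) rose. Hand1, a basic helix-loop-helix factor of the sympathetic lineage, fell from 415 ± 136 to 7.23 ± 8.86 TPM (−5.43, adjusted p = 1.24e-04, and −6.35 with limma on log2(TPM + 1)), and Prdm16, a zinc finger regulator, from 9.11 ± 2.84 to 3.09 ± 0.797 TPM (−1.11, adjusted p = 0.00718, edgeR). Of the 8 sympathetic neuron markers, 6 were lower in tumors and 1 was higher, and their part in the Hand1 value was not tested. Tal1, a blood-forming factor that fell outside the rule because its mean TPM was under 1 and was named after its value was seen, was the third lower gene (−1.95, adjusted p = 0.0416). Without transgene-free ganglion 2 it was at −1.77 (adjusted p = 0.0618, edgeR), so that 2 genes passed as lower.

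RUNX cofactors were 14 tested genes of a list of 15, in which 1 gene stood under 2 names. In tumors 6 were higher, 5 lower and 3 did not pass, where 30.6% of all genes were higher and 30.9% lower, with a median of −0.25 (3 higher, 6 lower and a median of −0.69 with limma on log2(TPM + 1)). Hipk2, a kinase that acts on RUNX proteins, rose from 95.0 ± 14.3 to 250 ± 61.1 TPM (1.82, adjusted p = 6.94e-05, edgeR). The acetyltransferase Kat6a rose by 1.49 (adjusted p = 3.30e-05) and the histone methyltransferase Suv39h1 by 1.33 (adjusted p = 2.02e-05, edgeR). The Groucho corepressor Tle2 went from 9.11 ± 1.98 to 0.785 ± 0.796 TPM (−3.07, adjusted p = 0.00295), and the coactivators Yap1 and Wwtr1 fell by 2.98 (adjusted p = 1.33e-05) and 2.68 (adjusted p = 3.51e-05, edgeR). Fibroblast and glia markers were lower in tumors as given above, with 6 of 6 genes of each list past the threshold, and their part in these changes was not tested.

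Of 14 genes that RUNX proteins are known to regulate, mostly in blood, bone and T cells, 9 were tested. Spp1, an extracellular matrix protein, and the collagenase Mmp13 were higher in tumors, Zbtb7b, a factor of CD4 T cells, was lower, and 6 did not pass, so that 3 of 9 were called where 61.4% of all genes were. The median log2 fold change of the 9 was 0.376. It was −0.039 with limma on log2(TPM + 1), where 2 were higher and 2 lower. Spp1 was at 4.32 ± 2.61 TPM in transgene-free ganglia and 12.9 ± 7.86 TPM in tumors (1.98, adjusted p = 0.00520, edgeR) and Zbtb7b at 13.5 ± 3.91 and 3.81 ± 1.70 TPM (−1.39, adjusted p = 0.00381, edgeR). Mmp13, named after its value was seen because its mean TPM was under 1, had 0 to 4 counts in transgene-free ganglia and 11, 90, 19 and 106 counts in tumors 1 to 4. Without transgene-free ganglion 2, Csf1r (1.09, adjusted p = 0.00951), Spi1 (1.53, adjusted p = 0.00884) and Itgal (1.09, adjusted p = 0.0488, edgeR), genes of macrophages and other white blood cells, also passed, so that 5 of 8 were higher and 1 lower, where 65.1% of all genes were called. Of the 9 macrophage markers, which also include Csf1r, 3 were higher in tumors with all libraries and 6 without ganglion 2, and their part in these values was not tested. In the pooled comparison of Th-MYCN with transgene-free ganglia 0 genes of the DNA-bound factors, cofactors and targets passed, and 4 of 16, 2 of 14 and 0 of 9 had an unadjusted p under 0.05, against 1574 of all 16665.

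**Figure D5:**
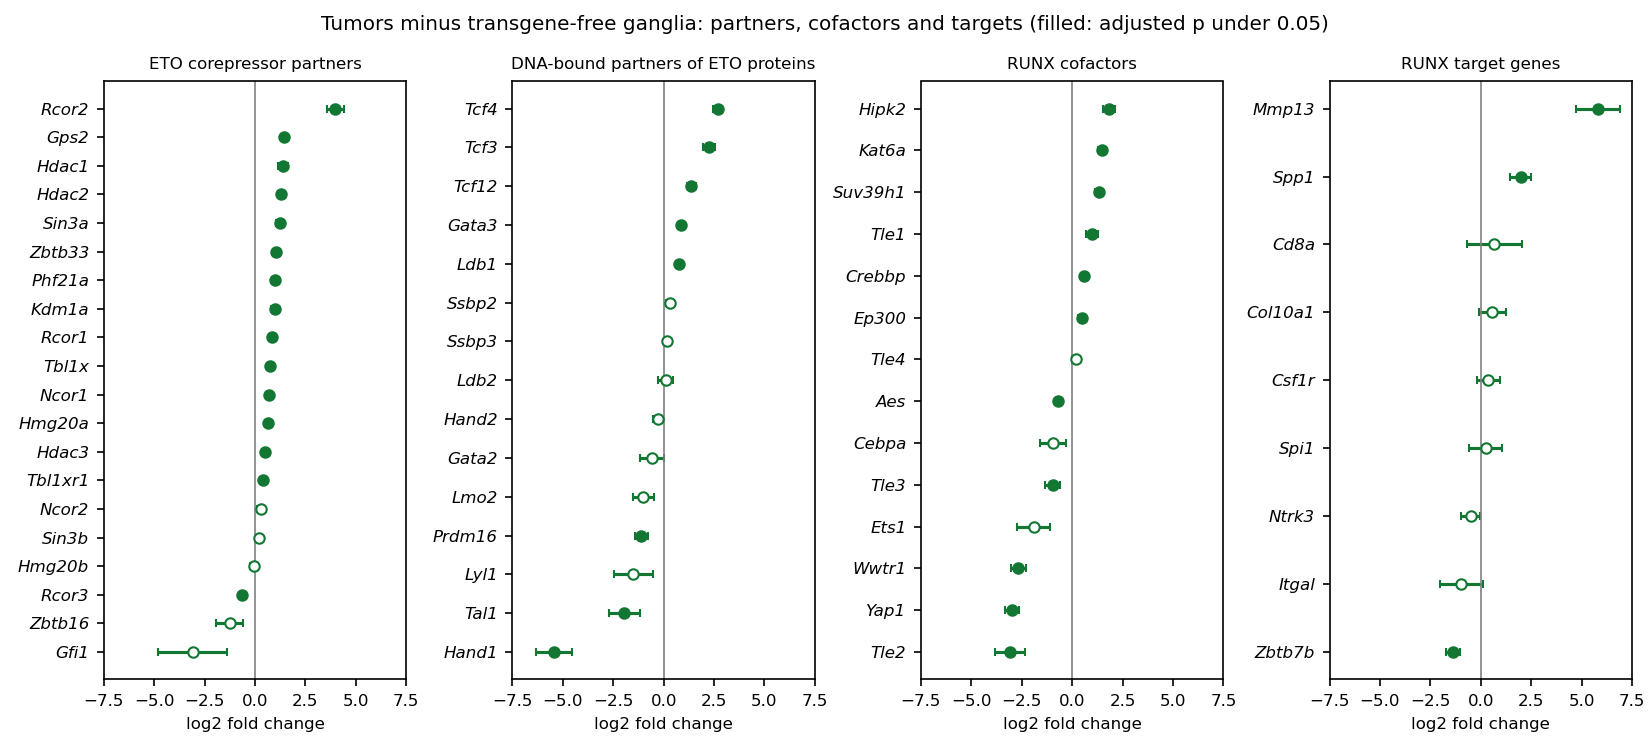
Log2 fold change (horizontal axis) in tumors against transgene-free ganglia, with SEs, for the tested genes of the 4 lists that are reported here, with filled points for an adjusted p under 0.05. Rcor2 at 3.98 and Hand1 at −5.43 lay far from 0, and most corepressor partners lay to the right of it.

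Over the 16 libraries, the genes with patterns most like each of the 7 were named by the Pearson correlation of log2(TPM + 1) among genes with a mean of at least 1 TPM, 14746 with the gene itself left out. The values describe these libraries, which share their groups and composition. For Runx1t1 they were Sytl4 (r = 0.982), which acts in secretory granule docking, Lin7c (0.979), a scaffold of cell junctions and synapses, and Glt28d2 (0.978). Sytl4 was at 6.62 TPM on average in transgene-free ganglia and 232 TPM in tumors. Within the 12 ganglia, which are among the libraries that chose these genes, r was 0.973, 0.970 and 0.982.

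Cbfa2t2 was most like Wwc1 (0.977), a scaffold of the Hippo pathway, and the nuclear import receptor Ipo7 (0.970), with r from 0.842 to 0.912 within ganglia. Cbfa2t3 was most like Capg (0.949), an actin-capping protein, Rasgrp3 (0.949) and the receptor Tgfbr2 (0.947), which were lower in tumors as it was. Without transgene-free ganglion 2 the r of Capg, Rasgrp3 and Tgfbr2 was 0.917 to 0.927. Prss23 (0.944), Lhfp (0.942) and Copz2 (0.940) then led for Cbfa2t3. Runx1 was most like H2-Ab1 (0.949), H2-Q7 (0.947) and Bmp2k (0.942), and Runx2 like Cd2 (0.965), Cxcr3 (0.965) and Cd79b (0.963). For Runx3 the closest were Cd22 (0.971), Il18r1 (0.967) and Slfn1 (0.965). Some of these, such as Cd2, Cd79b and Cd22, are known from white blood cells, and enrichment of such genes was not tested. Without transgene-free ganglion 2 the r of these 9 genes was 0.626 to 0.825, and the leading genes became others, such as Pcdhgb4 for Runx1 (0.847), Samd4 for Runx2 (0.845) and 2810408I11Rik for Runx3 (0.878). For Cbfb the closest were Phf20l1 (0.837), 1110059E24Rik (0.817) and Fbxo17 (0.813), and without ganglion 2 Shox2 (0.841) led.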

How the data were processed

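The authors aligned paired-end reads of 100 bases to mm10 with STAR and ran RSEM per gene, per the labels and the study's methods. The annotation and the use of strand in counting were not given in the sources used here. The deposited tables hold expected counts of RSEM, which were not normalized by the authors, and TPM, which RSEM scales by transcript length. The labels name polyA RNA, while the methods describe a kit for total RNA. Runx1t1 genotype is written Het or Hom in the headers of the columns, and Hom was read as wild type, as in the sample titles.

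Expected counts were rounded to whole numbers. With R 4.3.3 and edgeR 4.0.16, genes were filtered by filterByExpr (16665 kept), scaled by TMM and fitted in 1 quasi-likelihood model of all 5 groups with 9 contrasts, Benjamini-Hochberg adjusted, at a threshold of 0.05. The 7 genes and all lists were chosen with earlier results of these data known. From each list, the 3 higher and 3 lower genes of greatest change were named, where so many passed the threshold and averaged 1 TPM or more, in tumors and in pooled Th-MYCN ganglia against transgene-free ganglia. The 3 most correlated genes of each of the 7 were also named. Genes that the rule gives but that are not reported here were left out of the text and the figures, and stay in the counts. The model was tested on simulated data.

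Alternatives were RLE and upper-quartile scaling, no filter, a replicate block, terms for depth (20000000 counts) and sex, only the groups compared, DESeq2 1.42.0, limma 3.58.1 on log2(TPM + 1) or log2(TPM + 0.1), a pseudocount of 0.1 TPM in shares, libraries on either side of the depth split, and leaving out each library. Sex was not in the labels and was read from the Y-linked gene Ddx3y, as over 1 CPM or not. It was over 1 CPM in tumors 1, 2 and 3. Among ganglia it was so in transgene-free Runx1t1 +/+ ganglion 2, transgene-free ganglion 4 labelled het and Th-MYCN Runx1t1 +/+ ganglion 4. Leaving out 2 ganglia together was chosen after seeing the data, as were the similar genes and ETO shares without transgene-free ganglion 2. Precision was limited by 2 to 4 libraries per group and by counts as low as 1 for Runx3.

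Positions are from GENCODE vM21 (GRCm38). Among stretches of 100 bases, the 7 genes shared none with other genes, except Cbfa2t2, which shared 5.38% with its pseudogene Cbfa2t2-ps1. Antisense genes overlap exons of Cbfa2t3 (Gm10612), Runx1 (Gm26626) and Runx2 (Runx2os1), whose reads may not have been told apart. Figures were drawn with Python 3.11.15 and matplotlib 3.10.9.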

Additional observations from a re-analysis of the deposited data

Results flagged for a closer look

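In 2 groups of 4 libraries, 14 checks for a single distant library were made and 3 were positive, all for transgene-free Runx1t1 +/+ ganglion 2, which had the highest value of its group. They were Runx1 at 16.01 TPM, Runx2 at 8.25 TPM and Runx3 at 21.13 TPM, where the gap to the next ganglion took up 0.909, 0.934 and 0.962 of the range of the group. Chance gives such a result in about 1 of 20 groups, and these 3 come from the same library. The same ganglion held 937 TPM of lymphocyte markers.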

How the results depend on the processing

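In tumors against transgene-free ganglia 3 of the 7 genes passed, with 2 to 4 when single libraries were left out (9520 to 10755 of all genes, against 10240) and 5 without both transgene-free Runx1t1 +/+ ganglion 2 and Th-MYCN Runx1t1 +/+ ganglion 1, where Cbfb passed as well (0.40, adjusted p = 0.0269, edgeR) and 10887 of all genes did. In tumors against Th-MYCN Runx1t1 +/+ ganglia 1 gene passed, 1 to 2 with single libraries left out (3549 to 6755 of all genes, against 5755), 2 without both ganglia (7745), and 2, Cbfa2t2 and Runx3, when no other groups were in the fit (4264). Against Th-MYCN ganglia labelled het 2 passed, and 1 to 2 with single libraries left out (4313 to 7609 of all genes, against 7582), Runx1t1 being lost in the fit with 4313. For pooled Th-MYCN against transgene-free ganglia 0 passed, but 1, Runx1t1, passed with RLE, upper-quartile scaling, no filter and DESeq2, and 0 to 1 with single libraries left out. All genes called there numbered 7, 13 with RLE, 18 with upper-quartile scaling, 19 with no filter and 361 with DESeq2, 6 with a term for sex and 8 with limma on log2(TPM + 0.1), but 0 with the replicate block, the depth term, no other groups in the fit and limma on log2(TPM + 1), where Runx1t1 had adjusted p-values of 0.495, 0.294, 0.222 and 0.343, and 0 to 720 with single libraries left out. For Th-MYCN against transgene-free Runx1t1 +/+ ganglia 1 passed, with 0 under limma on log2(TPM + 1) and log2(TPM + 0.1), only the groups compared and both ganglia left out, and 0 to 2 with single libraries left out (0 to 1811 of all genes, against 156). In Th-MYCN ganglia labelled het against Runx1t1 +/+, 0 passed, and 0 to 1 with single libraries left out (0 to 320 of all genes, against 2), Runx1t1 passing in the fit with 320.

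Values that changed sign included those of Runx2 in tumors against transgene-free ganglia (−1.78 to 0.00265 with single libraries left out, 0.00304 without both ganglia), Runx3 (−0.0972 to 1.70), Cbfb (−0.12 with limma on TPM at either pseudocount) and Runx1t1 in tumors against Th-MYCN Runx1t1 +/+ ganglia (−0.0586 to 1.34). In Th-MYCN against transgene-free Runx1t1 +/+ ganglia, leaving out ganglion 2 turned Runx1 from −0.94 to 0.44, Runx3 from −3.11 to 0.08 and Cbfb from −0.10 to 0.10. Apart from leaving out ganglion 2, the cause was not tested. The share of Runx1 in the Runx sum in Th-MYCN Runx1t1 +/+ ganglia was 70.0%, and 67.2% with 0.1 TPM added.

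By the rule that each pair should correlate, the replicate numbers were not taken to pair the samples. Of 25 pairs with the same number, 6 had a correlation of deviations above 0.1 (from −0.492 to 0.331), and 7 of 16 libraries matched best with their own number. The 4 pairs between transgene-free Runx1t1 +/+ ganglia and tumors were all above it (0.123 to 0.331), and with the block the same 3 of the 7 genes passed in tumors against transgene-free ganglia. With a block for the number 0 of the 7 genes passed between Th-MYCN and transgene-free Runx1t1 +/+ ganglia (Runx1t1 3.28, adjusted p = 0.0736, edgeR), and 0 of all genes.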
